A study of Mus musculus with 6 samples.

Results

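The genes described here are 41 genes of the smooth muscle contractile apparatus, picked by symbol from the 49548 genes of the deposited table. Every one of them was found once in the table, and all 41 were among the 26402 genes tested. They code for actins, myosin chains, the kinase and phosphatase of the myosin light chain and their regulators, regulators of the thin filament, and crosslinkers, intermediate filaments and scaffolds. The list was drawn up by function, with earlier results of these data known, and the rule itself uses no measured value. The libraries are 3′ mRNA sequencing of cancer-associated fibroblasts (CAFs) from colonic adenomas, with 3 libraries of GFP+ cells, called Col6a1+ CAFs, and 3 of Tomato+ cells, called Col6a1- CAFs. All of them came from young adult C57/BL6 mice of the genotype Col6a1-cre, Rosa26-mTmG that had received azoxymethane (AOM) and then cycles of dextran sodium sulphate (DSS) (AOM/DSS, a model of cancer arising from colitis), so both subsets carry the same alleles and the same exposure. In this reporter Cre activity replaces membrane Tomato by GFP, so that GFP marks cells in which Cre driven by Col6a1 sequences was active at some time, a population that includes both mural cells of vessels and PDGFRα-rich fibroblasts of the gut. Cells with CD45, EpCAM, CD31 or Ter119 were excluded in the sort, each library came from tumors pooled over several mice, and no tumor-free tissue is analysed here.

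Smooth muscle shortens when calcium-bound calmodulin activates myosin light chain kinase, which phosphorylates the regulatory light chain and lets myosin pull on actin. Myosin phosphatase reverses this step, and the inhibitor CPI-17 holds the phosphatase back. Tropomyosins, caldesmon and calponins sit on the thin filament, while filamin, α-actinin, desmin and synemin tie the filaments to each other and to the membrane. In the colon these proteins are found in the muscle layers, in the mural cells of vessels and in myofibroblasts close to the crypts, and non-muscle relatives of many of them are present in nearly every cell.

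The promoters of several contractile genes hold CArG boxes, the sites bound by serum response factor. A CArG box was searched as CC and GG around 6 bases that are each A or T. It is its own reverse complement, so one search covers both strands, and a box can share bases with a TATA-like stretch. RefSeq promoter windows on GRCm38.p6, from 250 bases before to 50 bases after each start, matched 36 of the 41 genes and gave 44 windows. Of these, 7 windows (15.9%) held a CArG box, against 535 of 32851 windows of all genes (1.63%). The 7 windows belong to 6 genes, because overlapping windows of Ldb3 hold the same box. With 1 inner base allowed to be G or C, the shares were 31.8% and 9.98%. The stretches below are shown because they lie before the starts of the 5 matched genes that were higher in Col6a1+ CAFs and had a site, and capitals mark a CArG box or a box with 1 inner base off.
Acta2, chr19:34255378-34255477, minus strand: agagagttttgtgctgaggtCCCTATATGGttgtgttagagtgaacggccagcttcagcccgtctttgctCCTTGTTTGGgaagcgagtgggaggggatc
Myl9, chr2:156775289-156775388, plus strand: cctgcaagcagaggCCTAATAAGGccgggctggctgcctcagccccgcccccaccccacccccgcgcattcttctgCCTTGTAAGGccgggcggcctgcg
Cnn2, chr10:79988499-79988598, plus strand: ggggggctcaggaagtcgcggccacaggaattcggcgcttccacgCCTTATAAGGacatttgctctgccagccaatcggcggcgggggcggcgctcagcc
Filip1l, chr16:57549135-57549234, plus strand: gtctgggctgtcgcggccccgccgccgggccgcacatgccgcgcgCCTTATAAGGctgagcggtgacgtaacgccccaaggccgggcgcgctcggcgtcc
Pdlim3, chr8:45885342-45885441, plus strand: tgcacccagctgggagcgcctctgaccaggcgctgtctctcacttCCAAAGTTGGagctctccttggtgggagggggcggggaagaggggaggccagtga

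In the Acta2 stretch both marked sites have 1 inner base off, at positions -84 and -34 from the start. The Myl9 stretch has a CArG box at -161 and a site with 1 base off at -99, and the boxes of Cnn2 and Filip1l lie at -56 and -62. The site of Pdlim3, at -100, has 1 base off. The other windows with a CArG box belong to Actc1, Ldb3 and Myl6. A CArG box was present in as many genes that passed the test as in genes that did not: 3 of the 18 matched genes that were higher in Col6a1+ CAFs and 3 of the 18 others had one, and 5 and 7 had one when 1 base off was allowed. These are matches of letters in a short window, and sites elsewhere, such as in first introns, were not searched.

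Those of the contractile genes that passed the test were all higher in Col6a1+ CAFs. At an adjusted p under 0.05 over all genes tested, 21 of the 41 genes (51.2%) were higher in this subset, against 2.66% of all genes tested. None was lower, against 1.96% of all genes tested, a share too small for this to say much over 41 genes. At an unadjusted p under 0.05 none was lower with limma, against 9.40% of all genes. With limma-voom none was lower either, against 10.8% of all genes. The median log2 fold change of the 41 genes was 1.69 (range -0.34 to 4.37), while that of all genes tested was -0.27. All genes tested include many with few counts. In a fit of only the 13515 genes whose mean reached 10 normalized counts, 22 of 40 contractile genes were higher, against 6.03% of all genes. The median log2 fold change there was 1.70 for the 40 genes and -0.15 for all genes. Every Col6a1+ CAF library lay above every Col6a1- CAF library for 28 of the 41 genes (68.3%), against 7.91% of all genes tested, and below for 1 gene, Tpm3, against 11.6%. With an unadjusted p under 0.05 and a log2 fold change over 1 as the criterion, 27 genes were higher (6.09% of all genes tested) and none was lower (8.61%). Fewer contractile cells in a library and less of these RNAs in each cell cannot be told apart in bulk samples.

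**Figure D1:**
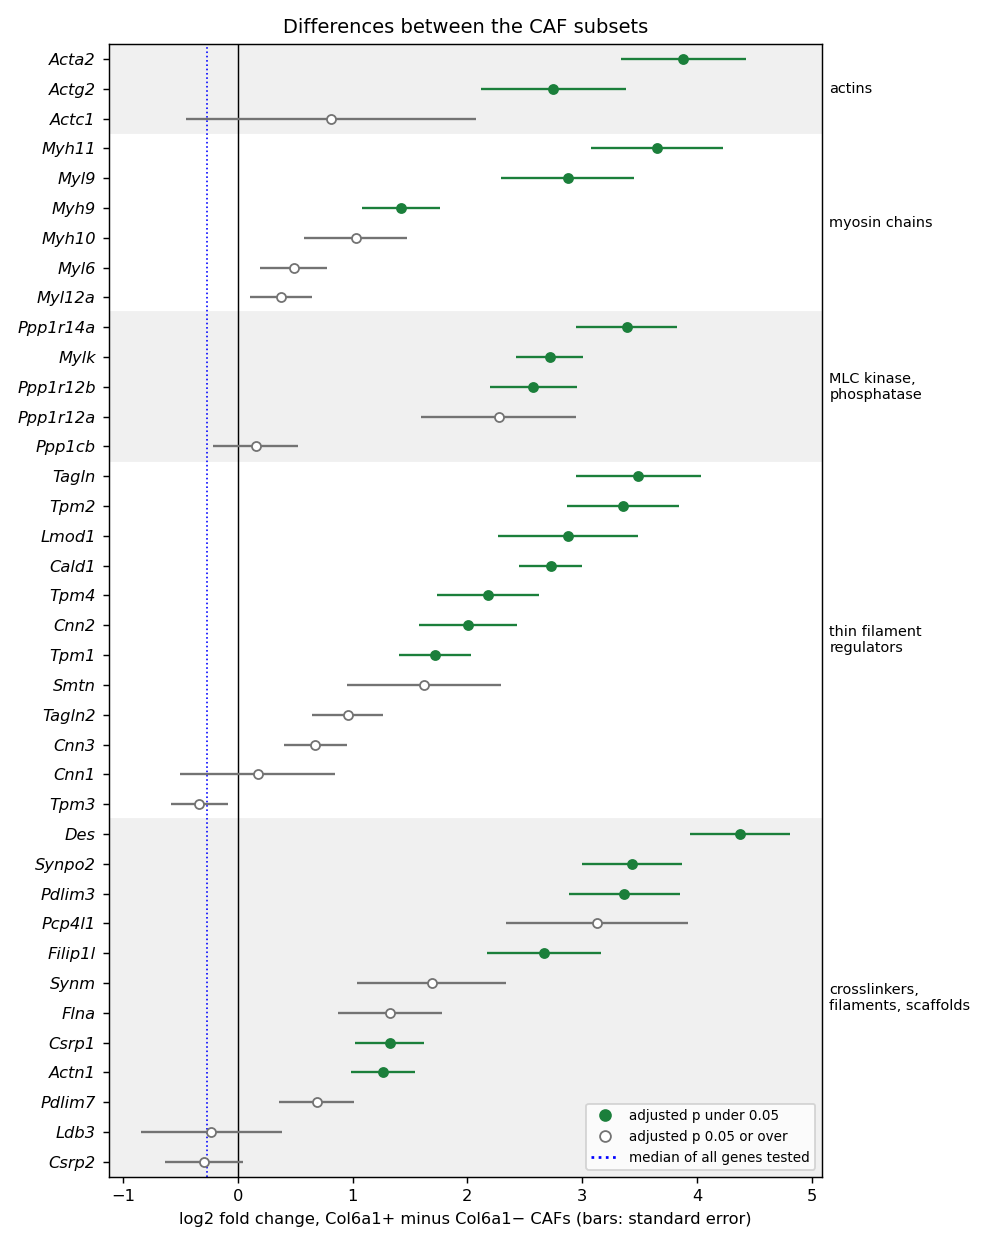
Log2 fold change of 38 of the 41 genes, Col6a1+ minus Col6a1- CAFs, grouped by role, with bars for the standard error (n = 3 libraries a subset). Filled points have an adjusted p under 0.05, open points do not, and the dotted line is the median of all genes tested at -0.27. The 21 filled points lie between 1.26 and 4.37, and the open points between -0.34 and 3.13.

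The calls depend on the libraries and on how the replicate numbers enter the fit. With the replicate number as a block, none of the 41 genes passed (smallest adjusted p 0.0612, which is also the smallest of all genes tested), while 28 had an unadjusted p under 0.05 with a higher level in Col6a1+ CAFs, against 7.01% of all genes in that fit. When the block was fitted only to genes whose mean reached 10 normalized counts, 24 passed, the 21 genes above with Smtn, Flna and Pcp4l1, against 7.26% of all genes in that fit. Leaving out Col6a1+ CAF replicate 1, 2 or 3 left 11, 12 and 6 genes, against 1.73%, 1.15% and 0.69% of all genes in those fits. Without Col6a1- CAF replicate 1, 2 or 3 there were 0, 7 and 7, against 0.043%, 0.71% and 0.40%. In the fit with 0, 27 genes were higher at an unadjusted p under 0.05, against 6.13% of all genes.

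The sort and the labels were checked first. Col6a1 had 861, 1287 and 1941 normalized counts in Col6a1+ CAF replicates 1 to 3 and 182, 321 and 102 in Col6a1- CAF replicates 1 to 3 (log2 fold change 2.82, standard error 0.44, adjusted p = 0.00613). The libraries held 3039152 to 3425249 normalized counts in all, and 14530 genes had at least 1 in Col6a1+ CAF replicate 1 against 18770 to 20511 in the other libraries. Markers of some other cells differed between the subsets, while other marker lists had few or no genes that passed the test. All 11 pericyte markers were higher in Col6a1+ CAFs (summed level 42058 to 91982, against 1151 to 2143, with Higd1b at 0 in every Col6a1- CAF library, which allows up to 3 counts each), as were 4 of 10 pan-fibroblast markers (37605 to 41790 against 7214 to 14644). The pan-fibroblast list did not move as 1. In it 3 genes had negative log2 fold changes, Fbln1 (-2.21), Mfap5 (-2.30) and Pi16 (-3.17), and none of these passed the test. Of 10 epithelial markers 7 were lower (5750 to 6474 against 20190 to 32330), with Epcam at 615 to 1074 against 3107 to 4129, although EpCAM+ cells had been excluded. Immune markers summed to 34 to 71 against 268 to 454 (1 of 10 lower, S100a8), and endothelial markers to 183 to 411 against 313 to 557 (1 of 9 higher, Tie1). Tie1 alone had 220, 56 and 152 normalized counts in Col6a1+ CAFs. The other 8 endothelial markers had negative log2 fold changes and did not pass the test (median of the 9 genes -1.84). The interstitial cell of Cajal list had 1 of 4 tested genes higher, Ano1, with sums of 394 to 621 against 189 to 290. Most of the sum in Col6a1+ CAFs was Ano1 itself, at 292, 476 and 564. The other tested genes did not pass. Etv1 had a log2 fold change of 2.50, while Kit (-3.01) and Thbs4 (-1.70) went the other way. Kit had 0, 0 and 5 normalized counts against 15, 12 and 14. No mesothelial gene (sums 1 to 16 against 9 to 43), erythroid gene (110 to 1713 against 281 to 482) or glial gene (62 to 93 against 70 to 131) passed the test in either direction. The part of these markers' cells in the results on contractile genes was not tested.

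Most of the listed genes of striated muscle were low in both subsets, but some were detected. Of 24 genes typical of skeletal and heart muscle, 5 were at 0 in every library, namely Actn2, Myh1, Myh2, Myh4 and Myh7, and none of the other 19 passed the test. Their summed level was 99 to 374 in Col6a1+ CAFs and 305 to 376 in Col6a1- CAFs. Ttn and Mb, for titin and myoglobin, were above 0 only in Col6a1- CAF replicate 3, with 3 normalized counts each.

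**Figure D2:**
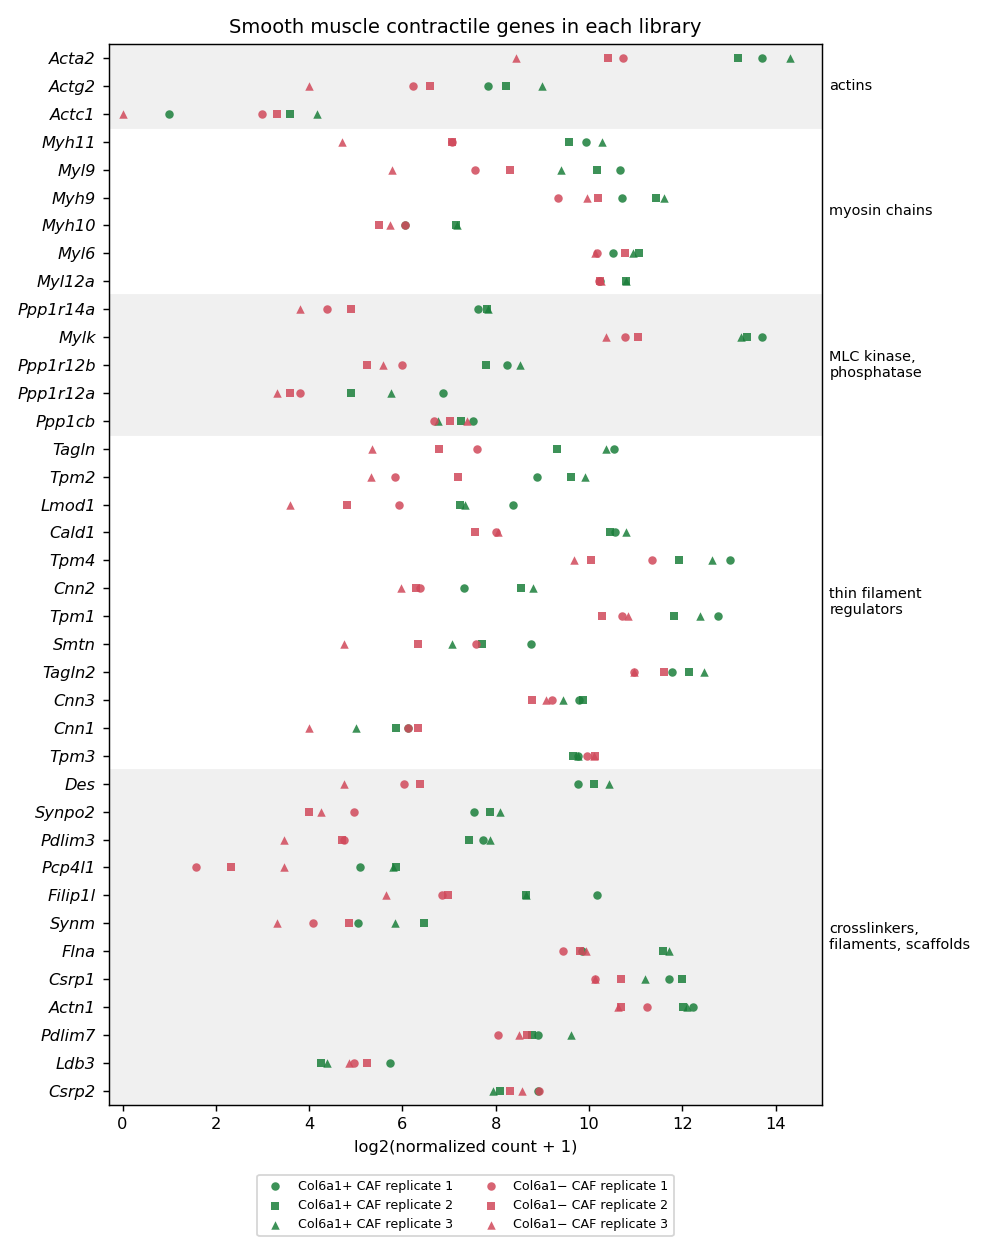
Level of 38 of the 41 genes in each of the 6 libraries as log2(normalized count + 1), grouped by role, with green symbols for Col6a1+ and red symbols for Col6a1- CAFs and a shape for each replicate number. Green and red symbols do not overlap for 27 of these genes with green higher and for Tpm3 with green lower, and the red triangle of Col6a1- CAF replicate 3 is often the lowest.

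Both smooth muscle actins were higher in Col6a1+ CAFs. Acta2 (ENSMUSG00000035783, chromosome 19, 34241090 to 34255336 on mm10), which codes for the α-smooth muscle actin used as a marker of activated fibroblasts and mural cells, had 13354, 9411 and 20435 normalized counts in Col6a1+ CAFs and 1701, 1363 and 346 in Col6a1- CAFs. The subsets did not overlap, and the lowest library by far was Col6a1- CAF replicate 3. Its log2 fold change was 3.88 (standard error 0.55, adjusted p = 0.00353), which is 14.7-fold on the log2(value + 1) scale. Actg2, the enteric γ-smooth muscle actin of the gut wall, had 228, 298 and 510 normalized counts against 74, 95 and 15 (log2 fold change 2.75, standard error 0.63, adjusted p = 0.035). Actc1, the cardiac α-actin, was close to the limit of detection, with 1, 11 and 17 normalized counts against 7, 9 and 0. Its subsets overlapped, its interval (log2 fold change 0.81, 95% interval -1.99 to 3.61) covers changes in both directions, and a value of 0 allows up to 3 counts.

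Among the myosin chains, the smooth muscle heavy chain and the regulatory light chain differed most. Myh11 (chromosome 16, 14194527 to 14291408), the heavy chain restricted to smooth muscle and mural cells, had 984, 757 and 1233 normalized counts in Col6a1+ CAFs and 132, 133 and 25 in Col6a1- CAFs. The log2 fold change of Myh11 was 3.65 (standard error 0.57, adjusted p = 0.00615). Myl9, the regulatory light chain that myosin light chain kinase phosphorylates, had 1634, 1160 and 672 against 186, 314 and 54 (log2 fold change 2.87, standard error 0.58, adjusted p = 0.0198). Both genes had their lowest value in Col6a1- CAF replicate 3, and neither overlapped between the subsets. Myh9, the heavy chain of non-muscle myosin IIA, was also higher, with 1678, 2774 and 3140 against 647, 1171 and 1000 (log2 fold change 1.42, standard error 0.34, adjusted p = 0.039).

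The other 3 myosin chains did not pass the test. Myh10, the heavy chain of non-muscle myosin IIB, had 66, 140 and 142 normalized counts against 66, 44 and 52 (log2 fold change 1.03, adjusted p = 0.288), so that Col6a1+ CAF replicate 1 fell within the range of the other subset. The essential light chain gene Myl6 had a log2 fold change of 0.49 (95% interval -0.16 to 1.13) and Myl12a, a regulatory light chain of non-muscle myosin, one of 0.38 (95% interval -0.22 to 0.97). Both intervals end below the log2 fold changes of Myh11 and Myl9. Exons of Myl12a overlap those of Myom1 on the other strand, which had means of 239 and 19 normalized counts, and whether the counting used strand is not given in the sources used here.

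The kinase of the light chain and parts of its phosphatase were higher in Col6a1+ CAFs. Mylk (chromosome 16, 34745210 to 35002420), which codes for myosin light chain kinase, had 13295, 10722 and 9812 normalized counts against 1759, 2127 and 1310. Its replicates lay close together in both subsets, with a difference of 2.72 on the log2 scale (standard error 0.29, adjusted p = 0.00128). Ppp1r14a, for the phosphatase inhibitor CPI-17, had 197, 224 and 226 against 20, 29 and 13 (log2 fold change 3.39, standard error 0.44, adjusted p = 0.00232). The 2 targeting subunits of myosin phosphatase had similar fold changes but different errors. Ppp1r12b (MYPT2) had 301, 221 and 365 against 63, 37 and 47 (log2 fold change 2.57, standard error 0.38, adjusted p = 0.00462). Ppp1r12a (MYPT1) had 116, 29 and 53 against 13, 11 and 9 (log2 fold change 2.27, standard error 0.67, adjusted p = 0.0933), and the highest Col6a1+ CAF library was 4 times the lowest, with no overlap between the subsets. The catalytic subunit Ppp1cb, which many phosphatase complexes share, had 183, 153 and 108 against 102, 128 and 167. Its subsets overlapped, with a log2 fold change of 0.16 (95% interval -0.66 to 0.97).

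Of the 12 thin filament regulators 7 were higher in Col6a1+ CAFs. Tagln (chromosome 9, 45929619 to 45936058), which codes for the actin-binding protein transgelin or SM22α, had 1489, 631 and 1321 normalized counts against 192, 110 and 40 (log2 fold change 3.49, standard error 0.54, adjusted p = 0.00593). An exon of Tagln overlaps Pcsk7 on the other strand, which had means of 103 and 79.3, so the Tagln value in Col6a1- CAFs, with a mean of 114, is less certain than that in Col6a1+ CAFs. Cald1, for caldesmon, which inhibits the myosin ATPase on actin, had 1500, 1402 and 1771 against 257, 188 and 264 (log2 fold change 2.72, standard error 0.28, adjusted p = 0.00093). Lmod1, for leiomodin 1, which nucleates actin filaments in smooth muscle, had 330, 150 and 161 against 60, 27 and 11 (log2 fold change 2.88, standard error 0.61, adjusted p = 0.0244).

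The tropomyosin genes, whose products lie along the actin filament, differed from each other. Tpm2, for β-tropomyosin, had 470, 781 and 968 normalized counts against 56, 146 and 39 (log2 fold change 3.35, standard error 0.49, adjusted p = 0.00437). Tpm4 had 8371, 3913 and 6365 against 2612, 1054 and 820 (log2 fold change 2.18, standard error 0.44, adjusted p = 0.0211), and Tpm1 had 6960, 3608 and 5292 against 1663, 1233 and 1822 (log2 fold change 1.72, standard error 0.32, adjusted p = 0.013). In Col6a1+ CAFs replicate 1 was the lowest for Tpm2 and the highest for Tpm4. Tpm3 was the only one of the 41 genes with every Col6a1+ CAF library below every Col6a1- CAF library, at 870, 803 and 871 against 993, 1116 and 1103. This difference was small (log2 fold change -0.34, 95% interval -0.89 to 0.22) and did not pass the test.

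The calponins gave a different order from that of the other smooth muscle genes. Cnn2, the calponin of non-muscle cells, was higher in Col6a1+ CAFs, with 158, 373 and 442 normalized counts against 82, 77 and 62 (log2 fold change 2.00, standard error 0.43, adjusted p = 0.0254). Cnn1, the calponin of differentiated smooth muscle, had 69, 57 and 31 against 69, 80 and 15. The subsets of Cnn1 overlapped, with a log2 fold change of 0.17 (95% interval -1.32 to 1.66), and this interval lies below the log2 fold changes of Acta2, Myh11 and Tagln. The acidic calponin gene Cnn3 had a log2 fold change of 0.67 (adjusted p = 0.246) with no overlap, at 690 to 933 against 435 to 586. Tagln2, the widely expressed relative of Tagln, had 3539, 4511 and 5646 against 1988, 3120 and 1990 (log2 fold change 0.96, standard error 0.31, adjusted p = 0.12). Smtn, for smoothelin of contractile smooth muscle, had 433, 209 and 133 against 190, 80 and 26, with the highest library 3.26 times the lowest in Col6a1+ CAFs and 7.31 times in Col6a1- CAFs (log2 fold change 1.62, standard error 0.67, adjusted p = 0.255). Smtn was higher in Col6a1+ CAFs in each of the 3 pairs of the same replicate number, and its adjusted p was 0.119 with the block and 0.0224 with the block and a mean of at least 10. Over 19 alternatives its adjusted p ran from 0.0224 to 0.612.

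Of the 12 crosslinkers, intermediate filaments and scaffolds 6 were higher in Col6a1+ CAFs. Des (chromosome 1, 75360329 to 75368579), which codes for desmin, the intermediate filament of muscle and of many pericytes, had the largest fold change of the 41 genes. It had 865, 1108 and 1372 normalized counts against 65, 82 and 26 (log2 fold change 4.37, standard error 0.43, adjusted p = 0.000862), which is 20.7-fold on the log2(value + 1) scale. Synm, for synemin, which joins desmin filaments to the membrane, had 32, 87 and 56 against 16, 28 and 9 and did not pass (log2 fold change 1.69, standard error 0.65, adjusted p = 0.209).

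Proteins that bind actin or α-actinin at dense bodies and adhesions were among the genes that passed the test. Synpo2, for the actin-bundling protein myopodin, had 185, 235 and 270 normalized counts against 30, 15 and 18 (log2 fold change 3.43, standard error 0.44, adjusted p = 0.00221). Pdlim3, for the actinin-associated LIM protein, had 210, 170 and 233 against 26, 25 and 10 (log2 fold change 3.36, standard error 0.48, adjusted p = 0.00408). Filip1l, a relative of the filamin-binding protein FILIP1, was higher in every Col6a1+ CAF library but uneven among them, with 1152, 403 and 398 against 114, 125 and 49 (log2 fold change 2.67, standard error 0.50, adjusted p = 0.0138). Actn1, for the crosslinker α-actinin 1, had 4785, 4163 and 4378 against 2433, 1645 and 1576 (log2 fold change 1.26, standard error 0.28, adjusted p = 0.0287). Csrp1, for a LIM protein that binds α-actinin and zyxin, had a similar difference, with 3356, 4073 and 2368 against 1127, 1637 and 1121 (log2 fold change 1.32, standard error 0.30, adjusted p = 0.0344).

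The other members of this group stayed over the threshold. Pcp4l1, which codes for a small IQ-motif protein, had 33, 57 and 55 normalized counts against 2, 4 and 10, did not overlap, and just missed it (log2 fold change 3.13, standard error 0.79, adjusted p = 0.0518, and 0.0143 to 0.205 over 18 alternatives, among them 0.108 with the block and 0.0315 with the block and a mean of at least 10). Flna, for the crosslinker filamin A, had 926, 3083 and 3365 against 694, 898 and 979, with Col6a1+ CAF replicate 1 within the range of the other subset (log2 fold change 1.32, standard error 0.45, adjusted p = 0.151). Without that library the log2 fold change of Flna was 1.92. With the block its adjusted p was 0.165, and 0.030 with the block and a mean of at least 10 (0.00262 to 0.459 over 19 alternatives). Pdlim7, for the LIM protein Enigma, had a log2 fold change of 0.69 (adjusted p = 0.337) at 439 to 781 against 265 to 408. The LIM proteins Ldb3 and Csrp2 had log2 fold changes of -0.23 (95% interval -1.59 to 1.13) and -0.29 (95% interval -1.05 to 0.46), and their subsets overlapped.

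Ratios of a gene to a relative within the same library do not depend on the scaling of libraries. In most pairs the first is a smooth muscle gene and the second a more widely expressed relative. Ppp1r12b over Ppp1r12a is not read in this way. Each ratio is given as a log2 ratio of normalized counts. Only its difference between the subsets is read, since the genes may differ in how well their 3′ ends are read. For Tagln over Tagln2 the log2 ratio was -1.25, -2.84 and -2.09 in Col6a1+ CAFs and -3.37, -4.81 and -5.60 in Col6a1- CAFs, a difference of 2.53. Myl9 over Myl12a differed by 2.50 and Myh11 over Myh9 by 2.23. These 3 pairs did not overlap, and each reached the smallest p that 3 against 3 libraries allow (exact permutation test, two-sided, p = 0.1, or 0.233 adjusted over 7 pairs). Without Col6a1- CAF replicate 3 the differences of these ratios were 2.03, 1.77 and 1.38.

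The other 4 pairs overlapped. Acta2 over the cytoplasmic actin gene Actb differed by 3.76 (exact permutation p = 0.2), but Actb itself ranged from 3336 normalized counts in Col6a1+ CAF replicate 1 to 25408 in replicate 2 of the same subset. Without Col6a1- CAF replicate 3 the difference of Acta2 over Actb was 2.65, and without Col6a1- CAF replicate 1 that of Tpm2 over Tpm4 was 0.54. Tpm2 over Tpm4 differed by 1.18 (exact permutation p = 0.2) and Ppp1r12b over Ppp1r12a by 0.30 (exact permutation p = 0.6). Cnn1 over Cnn2 was the only ratio with a lower mean in Col6a1+ CAFs, with a difference of -1.83 (exact permutation p = 0.2). After adjustment over the 7 pairs of genes these p-values were 0.233 and 0.6. Between libraries of the same replicate number the difference had 1 sign in all 3 pairs for each ratio except Ppp1r12b over Ppp1r12a, with 3.33, 2.15 and 5.81 for Acta2 over Actb, 1.37, 0.52 and 1.64 for Tpm2 over Tpm4 and -0.94, -2.74 and -1.81 for Cnn1 over Cnn2. An exact sign-flip test over 3 pairs cannot go below a p of 0.25, which these ratios reached.

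**Figure D3:**
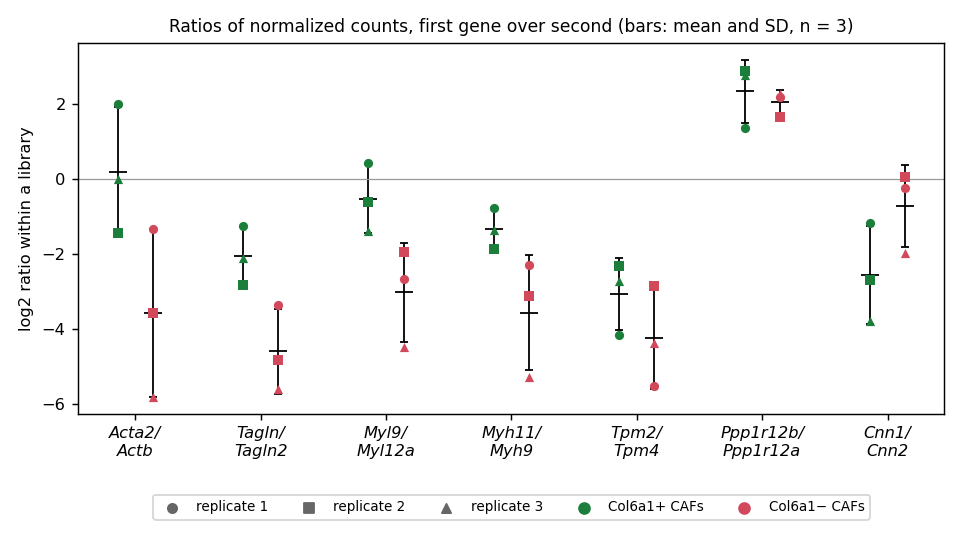
Log2 ratio of a gene to its relative within each library, with green symbols for Col6a1+ and red symbols for Col6a1- CAFs, a shape for each replicate number, and bars for the mean and SD (n = 3). Tagln/Tagln2, Myl9/Myl12a and Myh11/Myh9 separate the subsets, the other 4 pairs overlap, and Cnn1/Cnn2 has its lower mean in Col6a1+ CAFs.

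The contractile genes also varied within a subset. Col6a1- CAF replicate 3 was the lowest of its subset for 25 of the 41 genes (61.0%), and for 16 of the 21 that were higher in Col6a1+ CAFs, while it was the lowest for 33.6% of the 13515 genes whose mean reached 10. The highest value over the lowest in Col6a1- CAFs was 4.92 for Acta2, 5.32 for Myh11, 4.80 for Tagln, 5.81 for Myl9 and 6.33 for Actg2. In Col6a1+ CAFs the same ratios were 2.17, 1.63, 2.36, 2.43 and 2.24. The named genes do not stand for the whole list. Over the 40 genes detected in every library the median ratio was 1.63 in Col6a1- CAFs and 1.83 in Col6a1+ CAFs. The ratio was larger in Col6a1- CAFs for 22 of these 40 genes. For the 21 genes that were higher in Col6a1+ CAFs the medians were 2.55 in Col6a1- CAFs and 1.87 in Col6a1+ CAFs. The same library, Col6a1- CAF replicate 3, also had the lowest Col6a1 (102 normalized counts), the lowest sum of pan-fibroblast markers (7214, against 14308 and 14644) and the lowest sum of pericyte markers (1151, against 2143 and 1546). Whether these values and the contractile genes share a source was not tested. Without this library the log2 fold changes were 3.17 for Acta2, 1.95 for Actg2, 2.87 for Myh11, 2.16 for Myl9, 2.88 for Tagln and 2.28 for Lmod1, and the median of the 41 genes was 1.49. In Col6a1+ CAFs replicate 3 was the highest for 19 of the 41 genes (46.3%), against 30.1% of the genes whose mean reached 10.

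Beyond these 41 genes, 53 other genes of contraction and of the actin cytoskeleton were listed (further actins and actin regulators, adhesion and dystrophin complex proteins, calmodulins and small GTPases). All 53 were tested, and 13 were higher in Col6a1+ CAFs, against 2.66% of all genes tested. None was lower, against 1.96%, a share too small for this to say much over 53 genes. The median log2 fold change was 0.90 (range -1.34 to 4.96), and 16 were negative. Every Col6a1+ CAF library lay above every Col6a1- CAF library for 25 genes, against 7.91% of all genes tested, and below for 6, against 11.6%. Nes and Tns1 were among the 3 with the largest fold changes. Nes, for the intermediate filament nestin, had 160, 155 and 258 normalized counts against 5, 3 and 8 (log2 fold change 4.96, standard error 0.57, adjusted p = 0.00158). Tns1, for tensin 1, which links integrins to actin, had 862, 773 and 1451 against 67, 91 and 79 (log2 fold change 3.64, standard error 0.34, adjusted p = 0.000662).

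**Figure D4:**
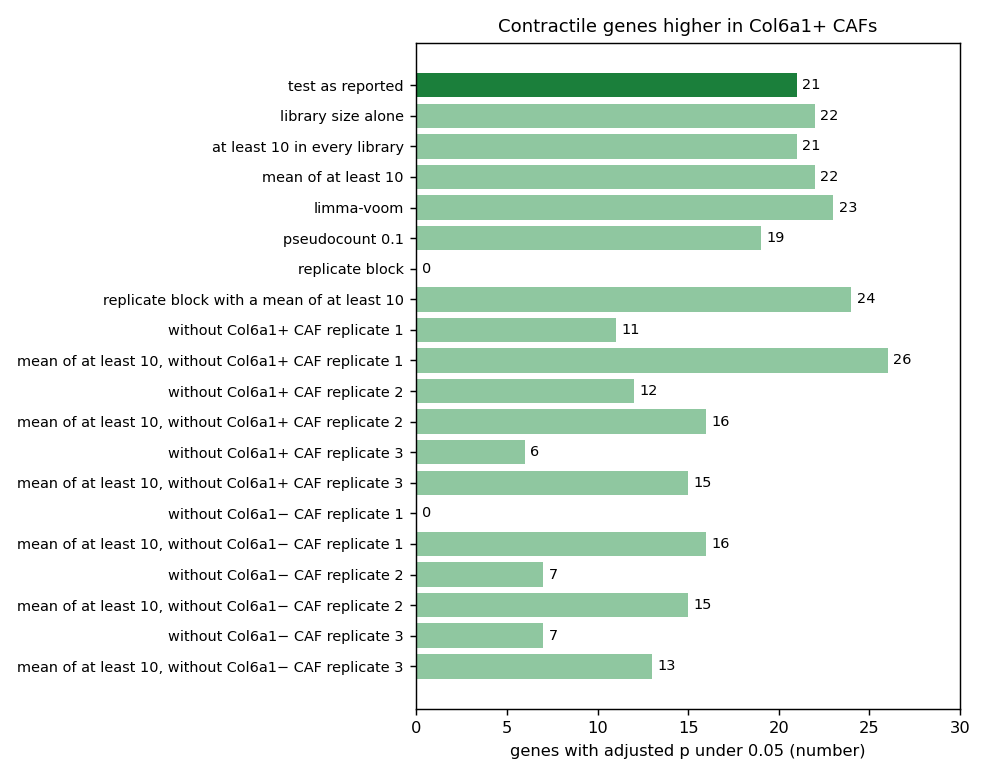
Number of the 41 genes with an adjusted p under 0.05 and a higher level in Col6a1+ CAFs under the reported test (dark bar) and under each alternative (light bars). The count was 21 as reported, 19 to 24 with all libraries and no block or with the block and a mean of at least 10, 0 with the block over all genes tested, and 0 to 26 when 1 library was left out.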

How the data were processed

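RNA of sorted CAFs was sequenced as QuantSeq 3′ mRNA libraries on an Ion Proton. The authors mapped reads to mm10 with TopHat2, mapped the rest with Bowtie2, summarized them to gene counts with GenomicRanges and normalized these with DESeq, both called from metaseqR. Values were used as deposited by the authors, as the log2 of the normalized count plus 1 (whole normalized counts in 100% of values, within 1e-06). The authors' p-values, false discovery rates, fold changes and group means in the table, and 6 further columns of per-sample values, were not used. The number of reads behind each library was not used, so the floor of 3 counts is in normalized counts and covers counting error only.

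With limma 3.58.1 in R 4.3.3, a model of the 2 subsets was fitted to the log2 values of the 26402 genes whose 6 libraries summed to 1 normalized count or more (eBayes, trended prior with 6.48 degrees of freedom, 4 residual), with Benjamini-Hochberg adjustment over all of them and a call at an adjusted p under 0.05. Fold changes are on the log2(value + 1) scale and understate those of low genes. The fit was tested on simulated data. Differences of ratios within pairs of the same replicate number were added after seeing the data. Groups and replicate numbers come from the labels. Each library is a pool of mice, and p-values measure the spread between these pools. Over 13515 genes whose mean reached 10, deviations of same-numbered libraries from their subset means had r = 0.245, 0.125 and 0.144. For other combinations r ran from -0.245 to 0.150, the highest for Col6a1+ CAF replicate 2 with Col6a1- CAF replicate 3. These values do not settle whether replicates 2 and 3 are pairs by number. The paper counts 3 samples in total, each from a pool of tumors, and sorted both subsets from adenomas. The 2 subsets may thus share pools, but which libraries share a pool is not stated there. The main fit treats the 6 libraries as independent. The main fit did not use the numbers, which entered only the block and the differences within pairs.

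All 41 genes enter the counts and medians, and 38 of them are described and plotted. Values of the other 3, and of 1 of the other contractile genes that the naming rule takes, are not reported here. The member genes, the lists of other contractile genes and of cell markers were chosen with earlier results of these data known. Of the other contractile genes, the 3 with the largest fold change in each direction among those called are named. Of the marker lists, counts and summed levels are given with any gene called or at 0 where a result turns on it. Epcam, Acta1, Ttn, Mb, S100a8, Tie1, Ano1, Etv1, Kit, Thbs4, Fbln1, Mfap5 and Pi16 were named after their values were seen. Gene coordinates are those of the deposited table on mm10, exon overlaps are from GENCODE M21, and promoter windows from RefSeq on GRCm38.p6. Ratios were tested by an exact two-sided permutation test over libraries in SciPy 1.17.1. Matplotlib 3.10.9 drew the plots.

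The alternatives were library size alone, a mean of at least 10 normalized counts, a minimum of 10 in each library, limma-voom, a pseudocount of 0.1, the replicate block alone and with a mean of at least 10, and leaving out each library. Chosen after seeing the data were the criterion of unadjusted p-values and the fits that left out a library and also required a mean of at least 10.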

Additional observations from a re-analysis of the deposited data

How the results depend on the processing

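With the replicate number as a block, 0 of the 41 genes were higher in Col6a1+ CAFs at an adjusted p under 0.05 (28 at an unadjusted p under 0.05, against 7.01% of all genes), and 24 were with the block and a mean of at least 10, against 7.26% of all genes. The count of 21 genes was 19 with a pseudocount of 0.1, 21 to 22 with library size alone or either filter on low values, and 23 with limma-voom. Leaving out 1 library gave 0 to 12 genes, in fits where 0.043% to 1.73% of all genes were called higher. With a mean of at least 10 as well there were 13 to 26, against 2.75% to 7.85% of all genes. Over these fits the count thus ran from 0 to 26. None of the 41 genes was called lower in any of these fits. Some fits called almost no gene lower at all. Over all genes, 0 of 26402 were lower with the block, 1 of 25839 without Col6a1- CAF replicate 1 and 14 of 25299 without Col6a1- CAF replicate 3. In these fits the lack of lower calls among the 41 genes says nothing. The median log2 fold change of the 41 genes stayed between 1.49 and 1.93 when 1 library was left out. Of the 41 genes, 37 kept their sign under every alternative, among them the 21 that were called. The other 4 changed sign when 1 library was left out, with log2 fold changes from -0.24 to 1.77 for Actc1, -0.0156 to 0.365 for Ppp1cb, -0.57 to 0.60 for Cnn1 and -0.70 to 0.0401 for Ldb3. Why the calls were lost was not tested beyond the number of genes in the fit and of libraries. Depth limits Actc1 and the Col6a1- values of Pcp4l1 and Ppp1r12a most, since the Col6a1- values of these 3 genes lay between 0 and 13 normalized counts.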
